A study of Mus musculus with 12 samples.

Results

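The genes described here encode proteins of the junctions that hold kidney epithelial cells together. There are 10 of them in a count table of 55487 mouse genes: the claudins Cldn1, Cldn2, Cldn4, Cldn7 and Cldn10, the tight junction genes Ocln and Tjp1, and the cadherins Cdh1, Cdh6 and Cdh16. They were listed by name, with earlier results of these data known, so their counts of calls are a description, and all 10 had enough counts to be tested in every comparison. None shared exon bases with another annotated gene in GENCODE M21, whose coordinates are those of GRCm38 (mm10).

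Tight junctions seal the space between neighbouring tubule cells and set which ions and how much water pass through it. Claudins form the strands of that seal: some of them, such as Cldn2, are pores, and others act mainly as barriers. Occludin (Ocln) is a second membrane protein of these strands, and ZO-1 (Tjp1) is the scaffold that ties them to actin. Below the tight junction, cadherins such as E-cadherin (Cdh1), K-cadherin (Cdh6) and the kidney-specific Ksp-cadherin (Cdh16) bind the cells to each other at the adherens junction. Each nephron segment has its own set of claudins, with Cldn2 typical of the proximal tubule and Cldn4 and Cldn7 typical of more distal segments.

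RNA-seq was performed on 12 kidney cortex libraries in 4 groups of 3. Ctrl were sham-treated mice without Cre (labelled WT, ALR flox/flox in the methods of the study), and PT-KO were sham-treated ALR flox/flox mice carrying Ggt1-Cre (labelled ALR knockdown), in which Cre is made in proximal tubule cells. Ctrl+I/R and PT-KO+I/R were the same genotypes after 22 min of bilateral renal ischemia and 24 h of reperfusion. All mice were on a C57BL/6 background, called mixed for this line, and 6 to 8 weeks old. The nephron outside the proximal tubule keeps ALR (gene Gfer), and the bulk samples hold all kidney cells. Nothing in the labels says that replicates came from separate cages or days, so p-values measure the spread between these libraries.

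Library totals lay between 12165089 and 23123693 counts. Values are given as CPM, a gene's count relative to the library's total, after TMM scaling, which adjusts that total for differences in composition between libraries. Ctrl libraries 1 and 2 carried 22402 and 19755 counts of Xist, the RNA of the inactive X chromosome, and 0 Y-linked counts. The other 10 libraries had at most 11 Xist counts and at least 3109 Y-linked counts, so both sexes occur only in Ctrl. Gfer had overlapping ranges in the libraries labelled PT-KO (10.01 to 17.1 CPM) and in Ctrl (11.3 to 14.5 CPM), and it was 21.3 to 22.7 CPM in PT-KO+I/R against 15.3 to 20.0 CPM in Ctrl+I/R. The deleted exon is only a part of the counted gene, so these counts do not check the labels, and every direction below that involves PT-KO rests on the label. None of 10 listed proximal tubule markers was at 0 in any group, and their summed level was 16358 to 18746 CPM in Ctrl and 5108 to 5696 CPM in PT-KO+I/R.

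After I/R, genes among the 10 were called in both directions, in kidneys labelled PT-KO and in Ctrl kidneys. The difference in the number of calls between the genotypes was not tested, and the share of all genes called differed too. Each comparison was tested with edgeR over all genes. Called means that the p-value adjusted by Benjamini-Hochberg was below 0.05. After I/R in Ctrl kidneys (Ctrl+I/R set against Ctrl), 2 of 10 were called, Cldn4 higher and Cdh16 lower. Over all tested genes 19.4% were called, 11.4% higher and 7.97% lower. After I/R in PT-KO kidneys (PT-KO+I/R set against PT-KO), 9 of 10 were called, 6 higher and 3 lower, and only Ocln was not. The share over all genes was 65.5%, with 32.9% higher and 32.7% lower. Between the injured groups, where a positive difference means more RNA in the knockouts, 5 of 10 were called. Cldn4 and Cdh1 were higher and Cldn2, Cldn10 and Cdh16 lower, and over all genes the share was 46.9%, with 22.5% higher and 24.4% lower. These comparisons share libraries with each other. Between the sham groups (PT-KO set against Ctrl) no gene was called (0 of 10 by edgeR and by DESeq2, against 0% of all genes by edgeR), while 3 had an unadjusted p under 0.05: Cdh6 at a log2 difference of -1.63, Cldn1 at -0.70 and Cldn10 at 0.22.

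The interaction asks whether the I/R difference in PT-KO kidneys is unlike that in Ctrl kidneys. It was called for 4 of the 10 genes, against 30.6% of all tested genes (14.3% positive, 16.4% negative). It was negative for Cldn10 and Cldn2 and positive for Cdh1 and Cldn7. The median log2 difference of the 10 genes was -0.03 after I/R in Ctrl kidneys, 0.65 after I/R in PT-KO kidneys and 0.24 between the injured groups, and over all tested genes it lay between -0.01 and 0.01. With total counts in place of TMM, the median of all genes moved to 0.11, 0.06 and -0.21 in these comparisons. The called genes then split into 2346 higher and 766 lower (1778 and 1241 with TMM) after I/R in Ctrl kidneys. Between the injured groups they split into 1978 higher and 5080 lower (3444 and 3725 with TMM). No called member changed direction with that scaling.

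**Figure D1:**
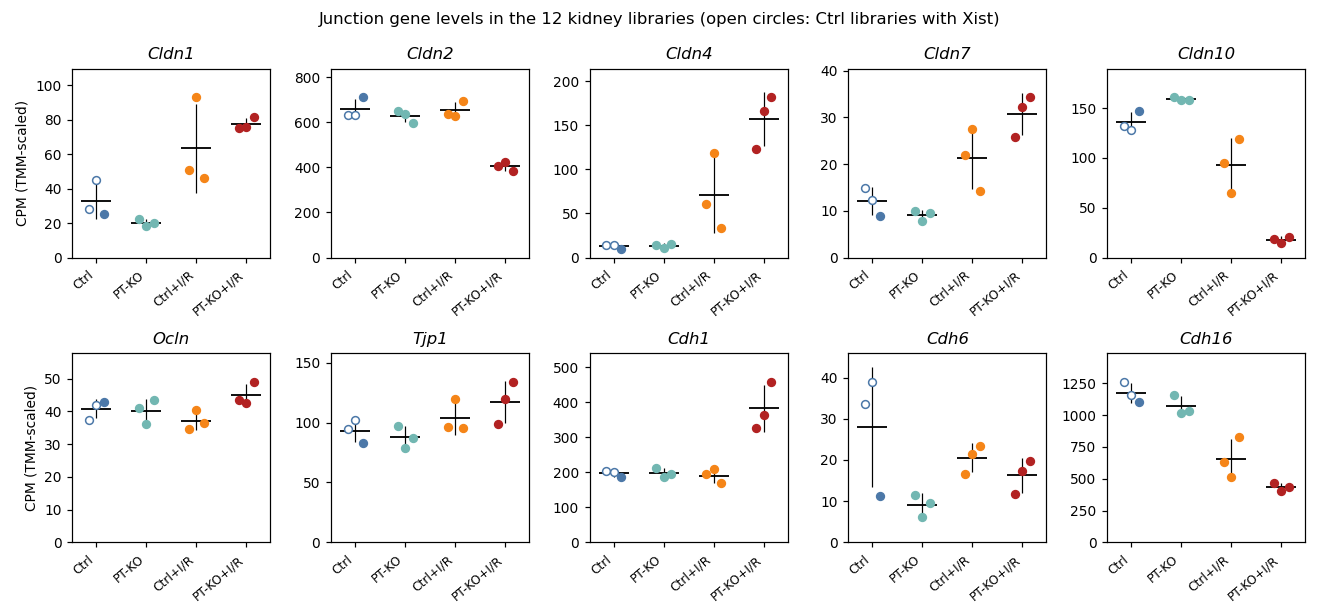
Level of each of the 10 genes (CPM, linear axis from 0) in the 12 libraries, with 3 points per group, the mean as a horizontal bar and the SD as a vertical line; open circles are the Ctrl libraries with Xist. Cldn10 lay between 14.3 and 21.1 CPM in PT-KO+I/R, below every other library, while Cdh1 and Cldn4 were highest in that group.

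Cldn2 (chromosome X, 139800828 to 139811386, plus strand) encodes the cation and water pore of the proximal tubule and was the claudin with the most RNA per length in every group. Its level was 632, 634 and 711 CPM in the 3 Ctrl libraries and 639, 627 and 693 CPM in Ctrl+I/R, so these groups overlapped. In PT-KO it was 649, 635 and 597 CPM. In PT-KO+I/R it was 408, 424 and 384 CPM, below all 9 other libraries. The log2 difference after I/R in PT-KO kidneys was -0.62 (SE 0.09, edgeR adjusted p = 0.000154) and the injured groups differed by -0.68 (SE 0.11, edgeR adjusted p = 0.00245). Between Ctrl+I/R and Ctrl the log2 difference was -0.01 (SE 0.13). The interaction was -0.59 (SE 0.14, edgeR adjusted p = 0.00761), but without the Ctrl libraries with Xist its adjusted p was 0.0814, at a value of -0.50.

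Cldn10 (chromosome 14, 118787908 to 118875489, plus strand) had the largest fall among the 10 genes. Its protein is made in variants that form an anion pore in the proximal tubule and a cation pore in the thick ascending limb. Levels were 132, 128 and 147 CPM in Ctrl and 161, 158 and 158 CPM in PT-KO. After I/R they were 94.5, 64.6 and 119 CPM in Ctrl+I/R but 18.1, 14.3 and 21.1 CPM in PT-KO+I/R. The 4 groups did not overlap, and the injured knockout kidneys stood far below the rest. The level fell 8.86-fold between PT-KO and PT-KO+I/R (log2 difference -3.15, SE 0.14, edgeR adjusted p = 7.28e-08). It was 5.17-fold lower in the injured knockouts than in Ctrl+I/R (log2 difference -2.37, SE 0.25, edgeR adjusted p = 0.000419). For I/R in Ctrl kidneys the log2 difference was -0.55 (SE 0.21), which missed the threshold (edgeR adjusted p = 0.103). The interaction of -2.58 (SE 0.27) had an edgeR adjusted p of 9.33e-05 and was called in every alternative, with -2.48 without the Ctrl libraries with Xist.

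The variants of Cldn10 start from separate first exons. RefSeq lists starts that lie 67.1 kb apart, and gene-level counts cannot tell which of them lost RNA.

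Proximal tubule and thick ascending limb markers were lower after I/R in PT-KO kidneys, where Cldn2 and Cldn10 were lower too. All 10 and all 6 of them were called lower there, with median log2 differences of -2.37 and -2.62, against 32.7% of all genes called lower. These markers were lower in sum in Ctrl+I/R than in Ctrl as well, with median log2 differences of -0.84 and -1.15. Of them 3 of 10 and 1 of 6 were called, all lower, against 19.4% of all genes called and 7.97% called lower. Cldn2 was at -0.01 there. The summed proximal tubule markers were 16358 to 18746 CPM in Ctrl, 17478 to 20200 CPM in PT-KO, 6091 to 11859 CPM in Ctrl+I/R and 5108 to 5696 CPM in PT-KO+I/R. Between the injured groups, 5 of 10 of them were called, all lower, with a median log2 difference of -0.96, against 46.9% of all genes called and 24.4% called lower. The 6 thick ascending limb markers summed to 7019 to 9379 CPM in Ctrl, 7121 to 8231 CPM in PT-KO, 1505 to 4347 CPM in Ctrl+I/R and 2070 to 2555 CPM in PT-KO+I/R. Although these sums overlap between the injured groups, 3 of the 6 were called there, all lower, against 24.4% of all genes called lower. Their median log2 difference was -1.68 (range -3.4 to 0.187). In bulk tissue, fewer cells of a type and less RNA per cell cannot be told apart, and the part of either in these results was not tested.

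Cldn4 (chromosome 5, 134945119 to 134946934, minus strand), a claudin of the collecting duct, rose most of all. It was 13.9, 14.4 and 9.91 CPM in Ctrl and 14.3, 10.4 and 15.8 CPM in PT-KO. After I/R it reached 60.2, 119 and 33.6 CPM in Ctrl+I/R, and 123, 166 and 182 CPM in PT-KO+I/R. Every I/R library lay above every sham library, and the I/R groups did not overlap, although the highest Ctrl+I/R library came close to the lowest PT-KO+I/R library. The rise was 5.55-fold in Ctrl kidneys (log2 difference 2.47, SE 0.43, edgeR adjusted p = 0.0142) and 11.8-fold in PT-KO kidneys (log2 difference 3.56, SE 0.19, edgeR adjusted p = 2.03e-07). PT-KO+I/R was 2.24-fold above Ctrl+I/R (log2 difference 1.16, SE 0.39, edgeR adjusted p = 0.0408). Leaving out a library removed that call in 5 of 6 cases, with an adjusted p of up to 0.126. With DESeq2 it was 0.07. The interaction was 1.09 (SE 0.51, edgeR adjusted p = 0.124) and was not called, except without Ctrl+I/R library 2, where it was 1.67 (edgeR adjusted p = 0.00458).

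The 250 bases before the Cldn4 start are shown because 2 AP-1 sites (TGANTCA, both strands searched) lie in them, at 240 to 234 and 158 to 152 bases before the start. AP-1 is the family of Fos and Jun proteins, whose genes respond to stress. At least 1 such site is in 6.75% of the 32851 RefSeq promoter windows of this length, and 2 or more are in 0.338%. An E-box of the kind bound by SNAI and ZEB repressors (CACCTG) lies 14 to 9 bases before the start, a motif found somewhere in 17.2% of windows. The sequence matches are a description and no test of binding. They are in capitals, and the window is chr5:134946935-134947184 of GRCm38.p6, read on the minus strand.
Cldn4 start: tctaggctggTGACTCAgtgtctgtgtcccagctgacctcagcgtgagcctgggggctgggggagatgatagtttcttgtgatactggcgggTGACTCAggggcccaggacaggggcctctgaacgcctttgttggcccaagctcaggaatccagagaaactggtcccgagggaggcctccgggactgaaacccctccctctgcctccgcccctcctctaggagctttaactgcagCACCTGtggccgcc

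Of the other genes, all but Cdh1 and Cdh16 had a window in the same table, and no AP-1 site was found in those windows. The second starts of Cldn7 and Ocln had 2 E-boxes each.

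Cldn7 (chromosome 11, 69964779 to 69967885, plus strand), a claudin of the distal nephron and collecting duct, was 14.9, 12.2 and 8.91 CPM in Ctrl, 10.01, 7.76 and 9.44 CPM in PT-KO, 22.0, 27.5 and 14.3 CPM in Ctrl+I/R and 25.7, 32.3 and 34.3 CPM in PT-KO+I/R. The sham groups overlapped, and so did the I/R groups and Ctrl with Ctrl+I/R, but PT-KO+I/R lay wholly above PT-KO. Cldn7 was 3.43-fold higher in injured than in sham knockouts (log2 difference 1.78, SE 0.15, edgeR adjusted p = 4.57e-06). After I/R in Ctrl kidneys the log2 difference was 0.82 (SE 0.27, edgeR adjusted p = 0.0686). That passed the threshold with DESeq2 (adjusted p = 0.0261), with no low-count filter, in 1 fit of all libraries and with the replicate block. The block there sets Ctrl libraries 1 and 2 against Ctrl+I/R libraries 1 and 2, which differ in sex. With sex as a covariate the Ctrl level rests on Ctrl library 3 alone, and the log2 difference was 1.26. The injured groups differed by 0.55 (SE 0.23, edgeR adjusted p = 0.0792). The interaction of 0.97 (SE 0.33) had an edgeR adjusted p of 0.0453, and it missed the threshold in 9 of 12 cases when a library was left out. It was 0.52 (edgeR adjusted p = 0.38) without the Ctrl libraries with Xist.

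Cldn1 (chromosome 16, 26356642 to 26371841, minus strand), a barrier claudin, was 28.1, 44.8 and 25.3 CPM in Ctrl and 22.2, 18.6 and 20.2 CPM in PT-KO. It was 51.0, 93.0 and 46.3 CPM in Ctrl+I/R and 75.0, 75.9 and 81.9 CPM in PT-KO+I/R. All 6 I/R libraries lay above all 6 sham libraries, and the I/R groups overlapped. The rise was 3.85-fold in PT-KO kidneys (log2 difference 1.95, SE 0.10, edgeR adjusted p = 1.6e-07). In Ctrl kidneys the log2 difference of 0.95 (SE 0.31) missed the threshold (edgeR adjusted p = 0.0686). It passed with DESeq2 (adjusted p = 0.0154), with no low-count filter, in 1 fit of all libraries and with the replicate block. With sex as a covariate, where the Ctrl level rests on Ctrl library 3 alone, it was 1.33. The injured groups differed by 0.31 (SE 0.24, edgeR adjusted p = 0.317). That value moved with single Ctrl+I/R libraries. Without library 2 the log2 difference was 0.67 (edgeR adjusted p = 0.00148), and without library 4 it was 0.12.

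Principal cells of the collecting duct, which normally make Cldn4 and Cldn7, had lower marker levels after I/R in PT-KO kidneys. The 6 principal cell markers summed to 404 to 443 CPM in Ctrl, 339 to 451 CPM in PT-KO, 121 to 375 CPM in Ctrl+I/R and 106 to 163 CPM in PT-KO+I/R. All 6 were called lower after I/R in PT-KO kidneys, against 32.7% of all genes. Between the injured groups 2 of the 6 were called, all lower, with a median log2 difference of -0.744. There 46.9% of all genes were called, 24.4% lower. Urothelial markers, of the lining of the renal pelvis, summed to 2.18 to 14.7 CPM over all libraries and none of the 4 tested was called between the injured groups. After I/R, 1 of 5 was called higher in Ctrl kidneys and 1 of 4 lower in PT-KO kidneys, and the interaction was called for 1 of 6. Over all genes 11.4% were called higher in Ctrl kidneys, 32.7% lower in PT-KO kidneys and 30.6% in the interaction. The 6 listed markers of injured tubules summed to 711 to 1614 CPM in Ctrl and 536 to 803 CPM in PT-KO, and to 9465 to 24751 CPM in Ctrl+I/R and 21509 to 23570 CPM in PT-KO+I/R. Although these sums overlap between the injured groups, 5 of the 6 were called there, 4 higher and 1 lower, against 46.9% of all genes. Their median log2 difference was 1.73. The interaction was called for 4 of the 6, all positive, against 30.6% of all genes. The part of any of these cells in the claudin differences was not tested.

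Ocln (chromosome 13, 100496507 to 100552718, minus strand) was the steadiest of the genes. It was 37.5, 42.0 and 43.0 CPM in Ctrl, 41.2, 36.3 and 43.4 CPM in PT-KO, 34.6, 40.5 and 36.5 CPM in Ctrl+I/R and 43.4, 42.6 and 48.9 CPM in PT-KO+I/R. Its log2 difference was 0.29 (SE 0.11, edgeR adjusted p = 0.0541) between the injured groups, where the groups did not overlap, and no comparison called it.

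Tjp1 (chromosome 7, 65296165 to 65527781, minus strand) was 94.6, 102 and 83.3 CPM in Ctrl, 97.3, 78.4 and 87.1 CPM in PT-KO, 95.9, 120 and 95.4 CPM in Ctrl+I/R and 98.6, 120 and 134 CPM in PT-KO+I/R. It was 1.35-fold higher in injured than in sham knockouts (log2 difference 0.44, SE 0.12, edgeR adjusted p = 0.0105). No other comparison called it, and its log2 difference between the injured groups was 0.19 (SE 0.14).

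**Figure D2:**
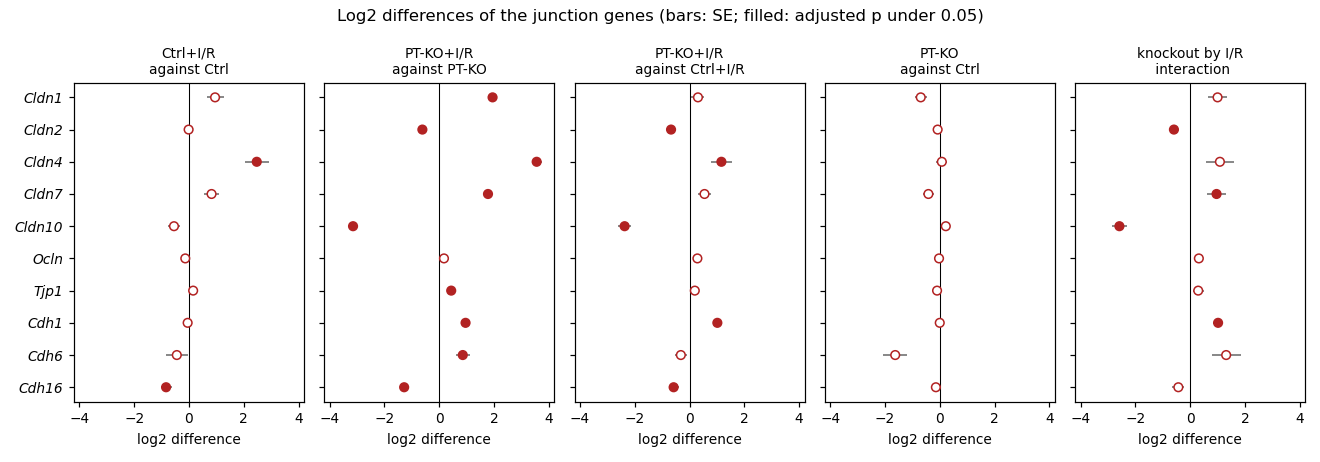
Log2 difference of each gene in the 4 comparisons and the interaction (x axis), with SE bars; filled points have an edgeR adjusted p under 0.05. After I/R in PT-KO kidneys 9 of 10 points are filled, from Cldn10 at -3.15 to Cldn4 at 3.56, and between the sham groups none is.

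Cdh1 (chromosome 8, 106603351 to 106670246, plus strand) encodes E-cadherin, which in mouse kidney is found mainly in the distal nephron and collecting duct. Its level was 205, 201 and 187 CPM in Ctrl, 214, 186 and 197 CPM in PT-KO and 194, 211 and 169 CPM in Ctrl+I/R. These 3 groups overlapped. In PT-KO+I/R it was 328, 363 and 458 CPM, above all 9 other libraries. Cdh1 was 2.02-fold higher in the injured knockouts than in Ctrl+I/R (log2 difference 1.02, SE 0.16, edgeR adjusted p = 0.0017) and 1.95-fold higher than in PT-KO (log2 difference 0.96, SE 0.13, edgeR adjusted p = 0.000101). The log2 difference in Ctrl kidneys after I/R was -0.05 (SE 0.12). The interaction of 1.02 (SE 0.19) had an edgeR adjusted p of 0.00192, was called in every alternative, and was 0.93 (edgeR adjusted p = 0.0281) without the Ctrl libraries with Xist.

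The 6 listed repressors of E-cadherin, of the Snai, Zeb and Twist families, had a summed level of 52.8 to 59.6 CPM in Ctrl, 43.2 to 62.9 CPM in PT-KO, 63.3 to 76.2 CPM in Ctrl+I/R and 57.4 to 77.8 CPM in PT-KO+I/R. Of 5 tested between the injured groups, 1 was called, against 46.9% of all genes. It was Snai2, at 0.724 against 1.82 CPM (log2 difference -1.27, SE 0.43, edgeR adjusted p = 0.0411). Zeb2 was 47.8 against 46.9 CPM. N-cadherin (Cdh2), which proximal tubule cells use, was 12.2 against 8.51 CPM there (log2 difference 0.54, SE 0.21, edgeR adjusted p = 0.0629). These genes were picked for naming after their values were seen.

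Cdh16 (chromosome 8, 104601911 to 104624396, minus strand) encodes Ksp-cadherin, which is found in all tubule segments, and had the most RNA per length of the 10 genes in Ctrl and PT-KO. Levels were 1258, 1161 and 1103 CPM in Ctrl and 1160.3, 1018 and 1028 CPM in PT-KO. They were 630.0, 517 and 825 CPM in Ctrl+I/R and 468, 407 and 433 CPM in PT-KO+I/R. All I/R libraries lay below all sham libraries, and the I/R groups did not overlap. Cdh16 fell 1.79-fold in Ctrl kidneys (log2 difference -0.84, SE 0.20, edgeR adjusted p = 0.0306) and 2.43-fold in PT-KO kidneys (log2 difference -1.28, SE 0.10, edgeR adjusted p = 2.96e-06). It was 1.5-fold lower in the injured knockouts than in Ctrl+I/R (log2 difference -0.58, SE 0.18, edgeR adjusted p = 0.0314), and the call was gone in 5 of 6 cases when a library was left out (adjusted p of up to 0.111).

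Cdh6 (chromosome 15, 13028701 to 13173675, minus strand), a cadherin of the developing proximal tubule, was the gene in which the Ctrl libraries differed most. Its level was 33.5 and 38.8 CPM in the Ctrl libraries with Xist and 11.4 CPM in the third Ctrl library. It was 11.6, 6.14 and 9.63 CPM in PT-KO, 16.7, 21.5 and 23.5 CPM in Ctrl+I/R and 11.7, 17.3 and 19.8 CPM in PT-KO+I/R. The third Ctrl library lay within the PT-KO range. Between the sham groups the log2 difference was -1.63 (SE 0.44, unadjusted p = 0.00579, edgeR adjusted p = 0.203), and without the libraries with Xist it was -0.32 (SE 0.32). It was, after I/R in Ctrl kidneys, -0.44 (SE 0.40) with all libraries and 0.88 (SE 0.25, edgeR adjusted p = 0.25) without those libraries, so the direction turned. In the main fits Cdh6 was called only after I/R in PT-KO kidneys, where all libraries share a sex: it was 1.81-fold higher (log2 difference 0.86, SE 0.25, edgeR adjusted p = 0.0121). Without PT-KO+I/R library 4 the adjusted p was 0.0501, and in 1 fit of all 12 libraries it was 0.0689. Some alternatives called Cdh6 lower between the sham groups: no low-count filter, the replicate block and leaving out Ctrl library 3. The block and leaving out Ctrl library 3 also called it lower after I/R in Ctrl kidneys. Those fits compare libraries of different sexes.

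Leaving out the Ctrl libraries with Xist sets 1 Ctrl library against 3, and its spread is then assumed to be that of the other group. In that fit 0 of 10 genes were called after I/R in Ctrl kidneys, with 0 calls over all genes. Cldn4 was then at 2.86 (SE 0.80, edgeR adjusted p = 0.247) and Cdh16 at -0.72 (SE 0.31, edgeR adjusted p = 0.303). Without Ctrl library 1 or Ctrl library 2 alone, the count of members was also 0, while 379 and 413 genes over the whole table were called. Without Ctrl+I/R library 1 it was 1, with 833 of 15776 tested genes called. Without Ctrl+I/R library 4 it was 5, with 4061 of 16221. The count of members between the injured groups was 8 without Ctrl+I/R library 2, with 7509 of 15636 tested genes called. It was 3 when any 1 of the other 5 libraries was left out, with 4918 to 6526 genes called. Without Ctrl library 3, 4 members (Cldn1, Cldn7, Cldn10 and Cdh6) and 1930 of 15597 tested genes were called between the sham groups. That fit compares libraries of different sexes. The interaction was called for 7 members and for 5509 of 16580 tested genes without Ctrl+I/R library 2. That library had the highest Cldn4, Cldn1 and Cldn7 and the lowest Cldn10 and Cdh16 of Ctrl+I/R.

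Levels of different genes can be compared only per kilobase of exon. On that scale the order in Ctrl was Cdh16 (309.6 CPM per kb), Cldn2 (198), Cldn10 (52.3), Cdh1 (43.2), Tjp1 (11.9), Ocln (9.67), Cldn4 (7.01), Cldn1 (6.76), Cldn7 (6.16) and Cdh6 (3.09). In PT-KO+I/R, Cldn2 (122 CPM per kb) and Cdh16 (115) came first, followed by Cldn4 (86.4) and Cdh1 (83.7), while Cldn10 (6.89) was second to last.

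Read as a share of all 21 claudins listed here, per kilobase, the claudin set changed more than its sum. The sum was 364 to 373 CPM per kb in Ctrl, 343 to 370.4 in PT-KO, 368 to 390.0 in Ctrl+I/R and 314 to 342 in PT-KO+I/R. Cldn4 made up 9.02% (range 4.92 to 16.8) of it in Ctrl+I/R and 26.8% (21.6 to 29.6) in PT-KO+I/R, as medians of 3 libraries. The median share of Cldn2 was 52.2% in Ctrl, 52.3% after I/R in Ctrl and 37.3% in PT-KO+I/R, and that of Cldn10 was 14.0%, 9.92% and 2.23%. These shares are given as a description, without a test. The sum of 9 cadherins was 337 to 385 CPM per kb in Ctrl, 313 to 359 in PT-KO, 195 to 264 in Ctrl+I/R and 195 to 223 in PT-KO+I/R. Among them the share of Cdh1 was 12.1% in Ctrl, 19.5% in Ctrl+I/R and 40.7% in the injured knockouts, and that of Cdh16 was 86.2%, 76.3% and 54.9%. In Ctrl kidneys the share of Cdh1 was higher after I/R at a log2 difference in level of -0.05, while Cdh16 fell.

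**Figure D3:**
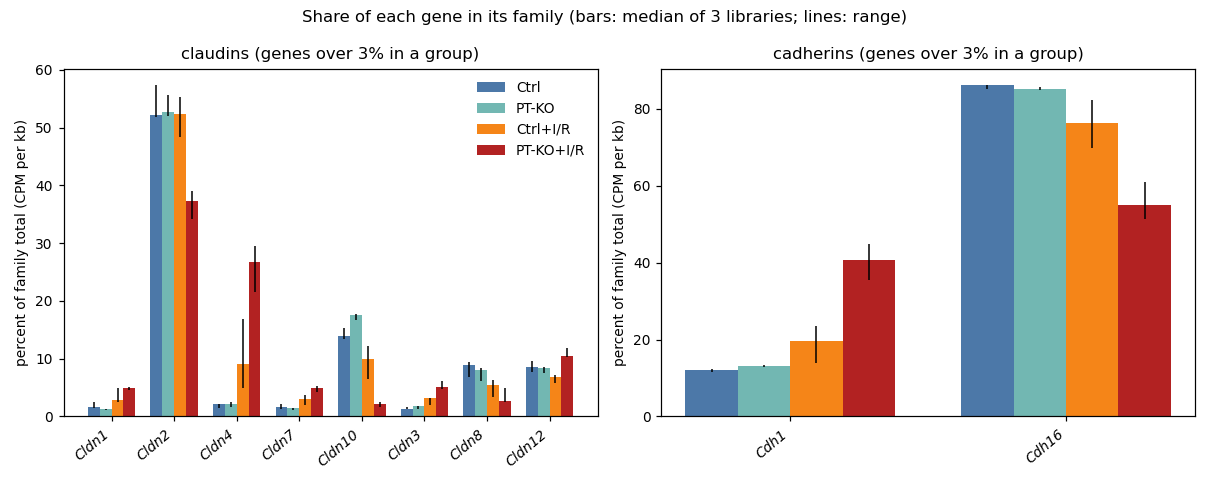
Share of single genes in the summed CPM per kb of 21 claudins (left) and 9 cadherins (right), for genes over 3% in a group; bars are medians of 3 libraries and lines their range. In PT-KO+I/R the share of Cldn4 is 26.8% and that of Cdh1 40.7%, with ranges above those of the other groups.

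The other junction genes were taken from 7 lists that hold 72 genes. Between the injured groups, 36 of the 66 tested were called (22 higher, 14 lower), or 54.5% against 46.9% of all genes, with a median log2 difference of 0.25. I/R in PT-KO kidneys gave 50 calls of 65 (34 higher, 16 lower), or 76.9% against 65.5% of all genes. I/R in Ctrl kidneys gave 15 of 64 (11 higher, 4 lower), or 23.4% against 19.4%. Between the sham groups, 0 of 64 were called by edgeR, with 10 at an unadjusted p under 0.05 and 2 called by DESeq2. The interaction was called for 22 of 67, or 32.8% against 30.6%, which is near the share of all genes. The 36 calls dropped to 17 without PT-KO+I/R library 4 and to 21 without either PT-KO+I/R library 3 or Ctrl+I/R library 1. The 15 calls dropped to 4, 3 and 5 without Ctrl library 1, Ctrl library 2 and Ctrl+I/R library 1. Without Ctrl library 3, 10 other junction genes and 1930 of 15597 tested genes were called between the sham groups.

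Of the 10 other claudins tested between the injured groups, 4 were called higher and 2 lower, or 60% against 46.9% of all genes. Cldn3, whose gene lies 39.3 kb from Cldn4, was 22.2 against 13.2 CPM (log2 difference 0.76, SE 0.23, edgeR adjusted p = 0.0254). It was also 3.10-fold higher in injured than in sham knockouts and 2.01-fold higher in Ctrl+I/R than in Ctrl. The lower ones were Cldn16 and Cldn19, which form the calcium and magnesium pathway of the thick ascending limb. Cldn19 was 19.05 against 42.6 CPM (log2 difference -1.13, SE 0.32, edgeR adjusted p = 0.021), and Cldn16 was 3.89 against 8.24 CPM (log2 difference -1.08, SE 0.27, edgeR adjusted p = 0.013). Cldn8 of the distal nephron was lower in injured than in sham knockouts, at 25.6 against 62.2 CPM (log2 difference -1.28, SE 0.22, edgeR adjusted p = 0.000621).

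Among the 8 other cadherins none was called higher and 4 were called lower between the injured groups, where 24.4% of all genes were called lower. Cdhr2 and Cdhr5, which link the microvilli of the proximal tubule brush border, were at 22.3 against 53.6 CPM (log2 difference -1.25, SE 0.12, edgeR adjusted p = 0.000316) and 87.9 against 162 CPM (log2 difference -0.87, SE 0.09, edgeR adjusted p = 0.000445). Cdh11, a cadherin of fibroblasts, was 6.14 against 19.3 CPM (log2 difference -1.66, SE 0.24, edgeR adjusted p = 0.00127). Fibroblast markers summed to 549 to 713 CPM in Ctrl+I/R and 124 to 217 CPM in PT-KO+I/R, and their part in the Cdh11 difference was not tested. P-cadherin (Cdh3), 46.1 kb from Cdh1, rose after I/R in both genotypes, by 1.53 (SE 0.26, edgeR adjusted p = 0.0136) in Ctrl and 1.40 (SE 0.22, edgeR adjusted p = 0.000288) in PT-KO on the log2 scale. Its value between the injured groups was -0.38 (SE 0.25, edgeR adjusted p = 0.249), a value shown although it was not called.

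In the desmosome list, 6 of 9 genes were called between the injured groups, 3 in each direction, against 46.9% of all genes. Ppl, the plaque protein periplakin, was 112 against 14.7 CPM, or 7.7-fold higher (log2 difference 2.94, SE 0.26, edgeR adjusted p = 0.000262). Its relative envoplakin (Evpl) was 7.02 against 22.1 CPM (log2 difference -1.64, SE 0.17, edgeR adjusted p = 0.000423). Perp, a p53 target of desmosomes, was 173 against 70.4 CPM (log2 difference 1.31, SE 0.12, edgeR adjusted p = 0.00026). The plakophilin Pkp2 was 3.02-fold higher in injured than in sham knockouts.

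Of the plaque and nectin genes of adherens junctions, 6 of 10 were called between the injured groups, 5 of them higher, against 46.9% of all genes called and 22.5% called higher. Nectin1 was 75.0 against 38.3 CPM (log2 difference 0.98, SE 0.13) and Nectin2 was 45.2 against 31.1 CPM (log2 difference 0.56, SE 0.19), while Nectin3 was 91.0 against 135 CPM (log2 difference -0.56, SE 0.11). Among 9 cell polarity genes 5 were called (55.6%, against the same 46.9%), all higher, with Pard6b at 96.3 against 55.8 CPM and Prkci at 101 against 66.6 CPM. Ybx3, of the tight junction plaque, was 1.57-fold higher, and Marveld3, a relative of occludin, was 1.78-fold lower. Of the 6 epithelial adhesion molecules, only Itga3 was called, at 107 against 63.4 CPM.

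**Figure D4:**
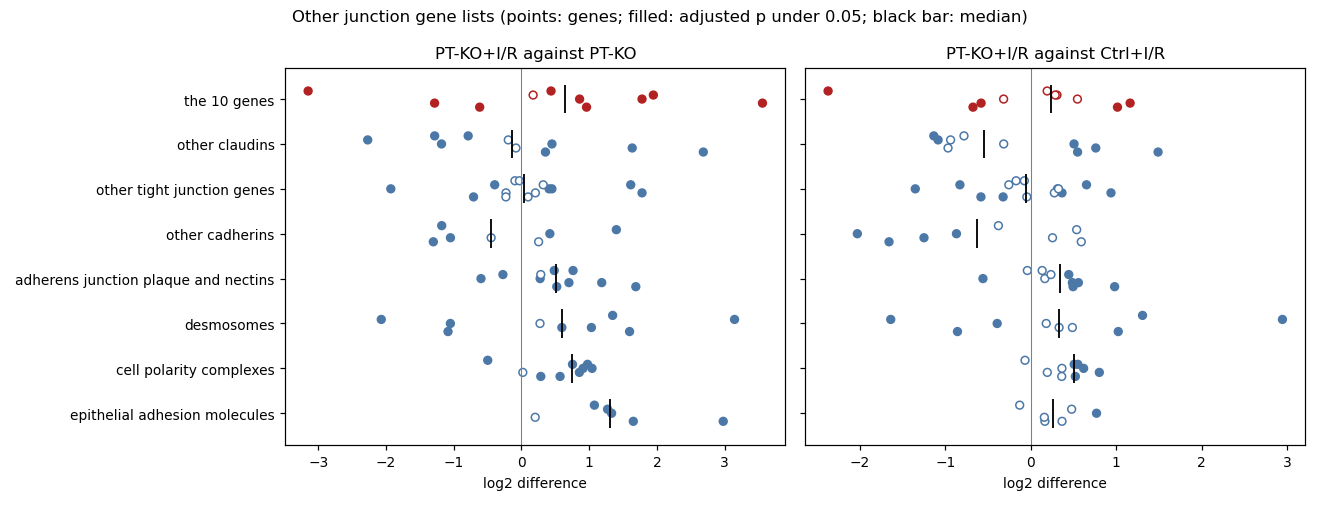
Log2 difference of each tested gene of the 10 and of the 7 other junction lists (x axis) after I/R in PT-KO kidneys (left) and between the injured groups (right); filled points have an edgeR adjusted p under 0.05 and black bars are medians. In the right panel Ppl is highest at 2.94 and Cldn10 lowest at -2.37.

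Genes with the most similar pattern were found by the root mean square (RMS) difference of log2 CPM over the 12 libraries, each gene centred on its own mean. For Cldn4 they were Klf6 (0.186) and Anxa2 (0.225), where the RMS deviation of Cldn4 from its own mean was 1.59. For Cldn10 they were Tcea3 (0.172) and Cfap126 (0.197), against 1.27, and for Cdh1 Stk24 (0.083) and Sgpl1 (0.0895), against 0.435. Cldn1 was closest to Shisa4 (0.186), Cldn2 to Tomm40l (0.0767), Cldn7 to B4galt2 (0.155) and Cdh16 to Slc25a36 (0.103). Ocln was closest to Dr1 (0.0634) and Tjp1 to Ncbp3 (0.0842), against RMS deviations of 0.135 for Ocln and 0.216 for Tjp1. Cdh6 was closest to Pcolce2 (0.264) and Gsta2 (0.315), against its own 0.729.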

How the data were processed

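Total RNA of 12 mouse kidney cortex samples was sequenced. The authors deposited 1 table of raw counts per gene for all libraries. Per the submitters' processing notes, reads were aligned with HISAT2 2.0.4 to mm10; the counting program, annotation and strand setting are not given in the sources used here. Of 55487 identifiers, 55141 were matched to a symbol and 29160 had a count. Library totals of 12165089 to 23123693 counts set the precision. One Ctrl column carries a number that no Ctrl title has and was assigned to its group only.

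Counts were analysed in edgeR 4.0.16 (R 4.3.3) with filterByExpr, TMM scaling and the quasi-likelihood test, using the 6 libraries of each comparison, or all 12 for the interaction. Benjamini-Hochberg adjustment ran over all tested genes, with a threshold of 0.05. SE is the size of the log2 difference divided by the square root of F. RMS differences used log2 CPM with a prior count of 2. Beyond the 10 genes, the naming rule took, per list and comparison, up to 3 called genes by absolute log2 difference, if their mean count reached 100. Motifs were sought in the 250 bases before RefSeq start sites (GRCm38.p6).

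Alternatives were DESeq2 1.42.0, total-count scaling, other filters, thinning, 1 fit of all libraries, a replicate block, sex as a covariate, and leaving out libraries. Only Ctrl libraries 1 and 2 carry Xist, so with sex as a covariate the Ctrl level rests on Ctrl library 3 alone. In the replicate block, a library whose number has no match in the other groups is fitted exactly. Such a library adds nothing to the comparison, and this holds for Ctrl library 3 in every block fit that has it. Scripts were tested on simulated data. Some genes and motifs that were computed are not reported here. The genes and lists were chosen with earlier results of these data known.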

Additional observations from a re-analysis of the deposited data

Results flagged for a closer look

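For 4 of the 10 genes the difference after I/R was unlike in kidneys labelled PT-KO and in Ctrl kidneys, by the interaction test of edgeR over all 12 libraries, which called 30.6% of all tested genes. For Cldn10 the difference of log2 differences was -2.58 (adjusted p = 9.33e-05), and for Cdh1 it was 1.02 (adjusted p = 0.00192). For Cldn2 it was -0.59 (adjusted p = 0.00761), and for Cldn7 it was 0.97 (adjusted p = 0.0453). The Ctrl group holds the only libraries with Xist. Without them, which leaves 1 Ctrl library, the values for Cldn10 and Cdh1 remained past the threshold. That for Cldn2 was then -0.50 (adjusted p = 0.0814) and that for Cldn7 0.52 (adjusted p = 0.38).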

How the results depend on the processing

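Of 780 values for single genes under an alternative, 668 kept their direction and side of the threshold, 41 gained and 41 lost the call, and 30 turned direction. After I/R in Ctrl kidneys, the count of the 10 genes called (2) was 4 with DESeq2 and with no low-count filter. It was 5 in 1 fit of all libraries and 6 with the replicate block, which there sets libraries 1 and 2 of each group against each other. All genes called were 3890 with DESeq2, 3372 with no filter and 3612 with the block. The other junction genes (15) were 27 in 1 fit of all libraries. The fits with sex as a covariate and without the Ctrl libraries with Xist each rest on Ctrl library 3 alone for the Ctrl level. Between the sham groups, 2 members were called with no filter and 2 with the replicate block, and other junction genes were 2 with DESeq2, 2 with no filter and 6 with the block. The block there sets Ctrl libraries 1 and 2 against PT-KO libraries 1 and 2, so libraries of different sexes are compared. Between the injured groups the replicate block gave 1 member (Cldn10) and 8 other junction genes, and 1683 genes in all. That fit sets only libraries 2 and 4 of each group against each other. For the interaction, sex as a covariate left 2 members and 13 other junction genes, and leaving out the libraries with Xist left 2 and 9. Leaving out each library gave 0 to 5, 8 to 9, 3 to 8, 0 to 4 and 3 to 7 members, and 3 to 22, 43 to 50, 17 to 38, 0 to 10 and 19 to 33 other junction genes, for the values after I/R in Ctrl kidneys, after I/R in PT-KO kidneys, between the injured groups, between the sham groups and the interaction. Over all genes the ranges were 379 to 4061, 9111 to 10262, 4918 to 7509, 0 to 1930 and 3622 to 5509. All genes called between the sham groups were 440 with DESeq2, 388 with no filter, 1378 with the replicate block, 1 with total counts and 8 without the libraries with Xist. The interaction gave 3215 with the block, 3233 with sex as a covariate and 2539 without those libraries, and I/R in Ctrl kidneys gave 4938 in 1 fit of all libraries and 0 without them. Directions turned only for uncalled values. For I/R in Ctrl kidneys these were Cldn2 (total counts 0.107, no filter 0.0009003, replicate block 0.00318, leaving out a library -0.0556 to 0.0517), Cdh1 (total counts 0.0665, sex 0.036, without Xist libraries 0.0549, leaving out a library -0.108 to 0.035) and Cdh6 (sex 0.86, without Xist libraries 0.88). Between the injured groups it was Tjp1 (total counts -0.0197). Between the sham groups these were Cldn4 (total counts -0.0548, replicate block -0.22, leaving out a library -0.0821 to 0.236), Cdh1 (DESeq2 0.0104, sex 0.0894, without Xist libraries 0.0886, leaving out a library -0.054 to 0.0478), Cldn2 (replicate block 0.00576), Cldn7 (sex 0.0251, without Xist libraries 0.0246), Tjp1 (sex 0.0735, without Xist libraries 0.0729) and Ocln (leaving out a library -0.0869 to 0.0452). The replicate numbers showed no clear pairing. Over 12 pairs with the same number, deviations from group means had a median correlation of -0.02 (range -0.19 to 0.18, 1 pair over 0.1). Pairs with different numbers were not computed, so these values cannot settle whether samples were paired. The cause of these changes was not tested, apart from the fewer libraries in fits that leave some out. With all libraries thinned to 12165089 counts, the Cldn7 interaction lost its call (adjusted p = 0.0868), and those of Cldn10, Cdh1 and Cldn2 kept theirs.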

Other observations

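Of 8 listed regulators of epithelial identity, 5 were called after I/R in PT-KO kidneys (1 higher, 4 lower), or 62.5% against 65.5% of all genes. In Ctrl kidneys 2 of the 8 were called, 1 in each direction, or 25% against 19.4% of all genes. Those named here were picked after their values were seen. After I/R in PT-KO kidneys, the transcription factors Tfcp2l1 and Ovol1 were lower, with log2 differences of -0.46 and -1.10 (edgeR adjusted p = 0.00157 and 0.00187), and Elf3 was higher, at 0.89. In Ctrl kidneys Elf3 was also higher, at 1.27. Between the injured groups, Elf3 was lower by a log2 difference of -0.72 and Esrp2, a splicing factor of epithelial cells, higher by 0.48.

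Summed markers of other cell types are given here as values, in the order Ctrl, PT-KO, Ctrl+I/R and PT-KO+I/R. Podocyte markers were 465 to 623, 374 to 480.3, 358 to 395 and 361 to 411 CPM, and 1 of 5 was called between the injured groups, where 46.9% of all genes were called. Intercalated cell markers were 264 to 328, 246 to 256, 128 to 184 and 175 to 182 CPM, and 0 of 5 were called there, with 0 at an unadjusted p under 0.05. Endothelial markers were 329.7 to 374, 337 to 363, 326 to 364 and 429.9 to 447 CPM, and 5 of 6 were called, 4 of them higher. Immune cell markers were 66.8 to 85.3, 71.3 to 74.3, 90.2 to 130.4 and 76.6 to 106 CPM, and 6 of 7 tested were called, 3 in each direction. Distal convoluted tubule markers were 1497 to 1892, 1232 to 1367, 311 to 640.5 and 349 to 484 CPM, and 2 of 4 were called, 1 in each direction.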
